A study of Drosophila melanogaster with 6 samples.

Results

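The regions described here are the 1 kb windows of the Drosophila melanogaster genome in which preimmune serum gave few reads relative to input from ovary chromatin of both genotypes studied. They are called depleted in that sense only, since a low ratio need not mean few preimmune reads. A window was taken when its preimmune over input ratio was 0.5 or less in su(Hw)f and in wild type, with at least 20 reads in each preimmune plus input pair. Each library was scaled to its reads on the major arms, and windows were sought on X, 2L, 2R, 3L and 3R of build dm3. The windows were thus chosen by their measured preimmune over input ratios, which are given as descriptions. This gave 2554 depleted windows among 112437 tested, which is 2.27% of the tested windows. A further 6590 windows on these arms held too few reads to be tested.

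The chromatin came from ovaries of virgin females less than 6 h old, fixed in 1.8% formaldehyde. The su(Hw)f ovaries carry the strain label su(Hw)fv, and the wild-type ovaries are Canton S. Each genotype gave 1 preimmune library and 1 input library used here. The mutant and the control are different strains, so the su(Hw) genotype, the strain background and the library cannot be told apart. The antibody field of the labels names anti-Su(Hw) for all of these libraries, while titles and descriptions name preimmune serum and input chromatin. The track names inside the deposited files read igG for preimmune and WCE for input. The ovary mixes germline and somatic cells, and reads from DNA hold no expression marker by which the tissue could be checked.

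Su(Hw) is a protein that binds DNA through zinc fingers, studied as a component of the insulator of the gypsy retrotransposon and needed in the female germline. Preimmune serum is taken before an animal is immunised and serves as a control for what antibodies bring down without the specific antigen. Input is the sheared, fixed chromatin before any precipitation. A low preimmune over input ratio can therefore come from few preimmune reads, from many input reads or from both, and the level of each library was read separately.

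The libraries held between 12173312 and 20596448 reads, of which 97.4% to 98.5% lay on the major arms. The median tested window held 174 reads in su(Hw)f preimmune, 161 in su(Hw)f input, 100 in wild-type preimmune and 116 in wild-type input. Levels below are multiples of these medians, while ratios rest on the arm totals, so a quotient of 2 levels does not give the ratio. Over all tested windows the median log2 ratio of preimmune over input was 0.13 in su(Hw)f and 0.01 in wild type. Each group is a single library, so no test between groups was run. All intervals are 95% intervals that cover counting or rank error only, and no difference has a replicate check.

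The depleted windows were windows rich in input. In su(Hw)f, their median preimmune level was 0.977 times the library median (0.966 to 0.983), and their median input level was 2.58 times (2.55 to 2.60). In wild type, preimmune stood at 0.620 times (0.610 to 0.630) and input at 1.79 times (1.78 to 1.81). The mutant preimmune level of these windows therefore lay close to that of an ordinary window, while the wild-type preimmune level lay below it. Input was above the library median in both genotypes in 2491 of the 2554 windows. Preimmune was below the library median in 1398 windows in su(Hw)f and in 2517 in wild type. All 4 libraries entered the choice of the windows, so these levels describe the choice and are no independent result.

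In reads, the median depleted window held 170 preimmune reads and 415 input reads in su(Hw)f. In wild type it held 62 preimmune and 208 input reads. The range ran from 8 to 465 reads in su(Hw)f preimmune, and from 34 to 1067 in su(Hw)f input. In wild type it ran from 2 to 163 in preimmune and from 23 to 635 in input. No depleted window was empty in preimmune in either genotype.

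**Figure D1:**
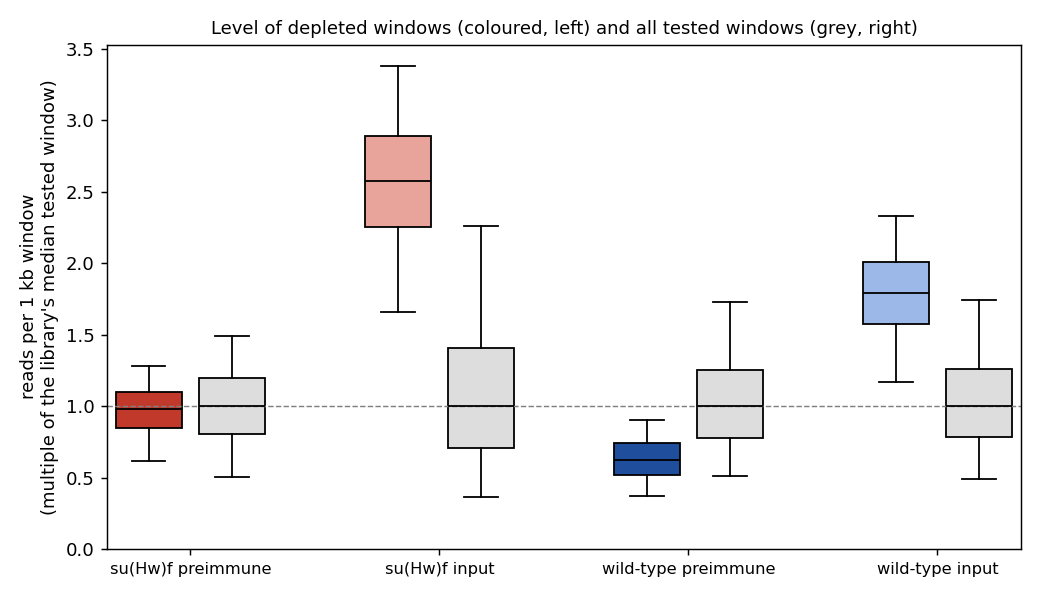
Reads per 1 kb window in the 4 libraries (x axis), as multiples of each library's median tested window (y axis), for the 2554 depleted windows (coloured, left of each pair) and all 112437 tested windows (grey). Boxes span the middle 50% with the median as a line and whiskers run from the 5th to the 95th percentile: depleted windows lie near 1 in su(Hw)f preimmune (0.977), high in su(Hw)f input (2.58), below 1 in wild-type preimmune (0.620) and high in wild-type input (1.79).

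The ratios themselves lay closer to the threshold in the mutant. The median ratio was 0.434 in su(Hw)f and 0.365 in wild type, with lowest values of 0.170 and 0.0909 in the same order. Summed over all depleted windows, preimmune over input was 0.419 in su(Hw)f (0.417 to 0.420) and 0.352 in wild type (0.350 to 0.354). The wild-type ratio was the lower one in 1923 windows, or 75.3%. Among all tested windows the wild-type ratio was the lower one in 59.7%. A ratio above 0.4 was found in 1750 of the windows in su(Hw)f and in 897 in wild type, and 9 windows were at 0.25 or less in both. Many windows lay near the threshold given their counting error: the interval lay wholly under 0.5 in both genotypes for 643 windows, and wholly under 1 in both for 2553.

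The windows at the threshold show how little separates those inside from those outside. 3L 16104001 to 16105000, X 18165001 to 18166000 and 2L 19187001 to 19188000 were the last ones inside, the first pair at 0.5 to 4 digits in su(Hw)f and the last at 0.4999. X 2632001 to 2633000, X 19517001 to 19518000 and 3L 1622001 to 1623000 were the first ones outside, each at 0.5001 in su(Hw)f. In all 6 of these windows the larger ratio, which decides membership, was that of su(Hw)f.

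Each genotype could also be used to choose windows that were then read in the libraries of the other. In su(Hw)f alone, 3786 windows were at 0.5 or less, 3.37% of those tested. In wild type alone, 11380 were, 10.1% of those tested. The 2554 shared windows were 67.5% of the su(Hw)f list and 22.4% of the wild-type list. Windows chosen in su(Hw)f had a median ratio of 0.421 in wild type, and 99 of the 3786 were above 1 there. Windows chosen in wild type had a median ratio of 0.628 in su(Hw)f, and 845 of the 11380 were above 1 there. The lists are of unequal size, so these shares do not rank the genotypes.

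Windows with lower ratios in 1 genotype were mostly called more often in the other, except that in su(Hw)f the lowest class did not lead. Among the 1460 windows at 0.3 or less in wild type, 46.2% were at 0.5 or less in su(Hw)f. This share was 26.7% for wild-type ratios between 0.3 and 0.4 and 14.4% for those between 0.4 and 0.5. It was 0.927% for wild-type ratios between 0.75 and 1. In the other direction, the wild-type share was 74.0% for the 123 windows at 0.3 or less in su(Hw)f and 78.5% for the 908 between 0.3 and 0.4. It was 63.5% for those between 0.4 and 0.5 and 9.30% for those between 0.75 and 1. Inside the depleted windows, where the rule removes most of the range, the log2 ratios of the genotypes correlated at r = 0.21 (rho = 0.182) over 2554 windows. Their log2 input counts correlated at r = 0.882 and their log2 preimmune counts at r = 0.579. These windows share libraries and are not replicates, and the correlations are given as descriptions.

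Depleted windows sat almost wholly in the upper end of the input range. When tested windows were ranked by su(Hw)f input and cut into 10 equal classes, the class with the most input held 2273 of the depleted windows, or 89.0%. In that class 20.2% of windows were depleted, against 0.0178% to 1.72% in the other 9 classes. Ranked by wild-type input, the fullest class held 1943 depleted windows (76.1%), and 17.3% of its windows were depleted. The other classes held 0.0356% to 3.13%. Most windows with much input were not depleted: of 8459 windows at or above the 90th percentile of both inputs, 1924 were depleted (22.7%, 21.9% to 23.7%). Over all 8459 windows, the depleted ones included, the median ratio was 0.583 in su(Hw)f and 0.439 in wild type. These windows were picked by the same input counts that divide each ratio. Low ratios were thus partly fixed by that choice and are given as descriptions.

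The classes of one genotype's input were also read in the libraries of the other, all 4 of which entered the rule. Windows of the fullest wild-type input class had a median su(Hw)f preimmune over input ratio of 0.632, and 20.9% of them were at 0.5 or less in su(Hw)f. In the emptiest wild-type class the median was 1.66 and 0.872% were called, and in the next class up 0.222%. The su(Hw)f preimmune level was 1.25 in the fullest class and 0.575 in the emptiest, while the su(Hw)f input level was 2.21 and 0.385. In su(Hw)f, preimmune was higher in fuller classes, over a narrower range than input. In wild-type libraries, read in classes of su(Hw)f input, the preimmune level was 0.790 in the fullest class and 0.990 in the emptiest, with input levels of 1.71 and 0.517. The median wild-type ratio was 0.4615 in that fullest class and 1.93 in the emptiest. In wild type, 60.1% and 1.33% of the windows of these classes were at 0.5 or less.

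The genotypes also differed from each other in the depleted windows. Scaled input was higher in su(Hw)f in 2508 of the 2554 windows (98.2%), against 42.7% of all tested windows. Among windows at or above the 90th percentile of both inputs the share was 96.9%, and 96.3% with the depleted ones left out. The median su(Hw)f over wild-type ratio was 1.58 in preimmune and 1.35 in input, against 1.04 and 0.958 over all tested windows. In the 8826 windows at 0.5 or less in wild type alone, it was 1.98 in preimmune and 1.15 in input. In the 6535 windows at or above that percentile that were not depleted, the median input ratio was 1.20. Preimmune was at least 2-fold higher in su(Hw)f in 538 depleted windows (21.1%, against 5.88% of tested windows), but input in only 5 of them (0.196%, against 0.121%).

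Of the 5 depleted windows with the highest input in su(Hw)f relative to wild type, 3 fell in a 4 kb stretch of X. The window X 19571001 to 19572000 held 401 preimmune reads and 1067 input reads in su(Hw)f ovaries, against 81 and 232 in wild-type ovaries. X 19572001 to 19573000 held 465 and 1044 in su(Hw)f ovaries, against 92 and 261 in wild-type ovaries. X 19569001 to 19570000 held 389 and 916 in su(Hw)f ovaries, against 78 and 247 in wild-type ovaries. Both kinds of library were high in the mutant there: su(Hw)f over wild type was 3.11 (2.70 to 3.60), 2.70 (2.36 to 3.11) and 2.51 (2.18 to 2.90) in input, and 2.97, 3.04 and 3.0 in preimmune. The other 2 were X 6997001 to 6998000 and X 1542001 to 1543000, at 2.14 (1.79 to 2.57) and 2.10 (1.71 to 2.60) in input.

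The fullest windows included the first 2 of these. The window with the most input relative to the library medians was 3L 13865001 to 13866000, with 150 preimmune reads and 615 input reads in su(Hw)f ovaries, against 148 and 635 in wild-type ovaries. Its ratio was 0.251 in su(Hw)f (0.208 to 0.300) and 0.270 in wild type (0.224 to 0.323). The next was 2R 3137001 to 3138000, with 311 and 820 reads in su(Hw)f ovaries, against 162 and 423 in wild-type ovaries. X 8119001 to 8120000 held 230 and 768 in su(Hw)f ovaries, against 89 and 439 in wild-type ovaries. In the first 2 of these windows preimmune was above the library median in wild type (1.48 and 1.62 times) and they were still depleted, since input stood at 5.47 and 3.65 times the median.

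The 5 lowest ratios among windows with at least 50 reads in each pair were of a different make. 3L 13423001 to 13424000 held 117 preimmune reads and 706 input reads in su(Hw)f ovaries, against 52 and 315 in wild-type ovaries. X 5732001 to 5733000 held 163 and 858 in su(Hw)f ovaries, against 53 and 353 in wild-type ovaries. X 1893001 to 1894000 held 155 and 623 in su(Hw)f ovaries, against 32 and 277 in wild-type ovaries. These 3 combined input of 2.39 to 5.33 times the median with preimmune below the median. 3R 2244001 to 2245000, in contrast, held 22 and 79 reads in su(Hw)f ovaries, against 5 and 55 in wild-type ovaries, with both inputs under 0.5 times the median. X 2014001 to 2015000 held 85 and 225 in su(Hw)f ovaries, against 7 and 89 in wild-type ovaries, and its wild-type ratio of 0.0909 (0.0355 to 0.195) was the lowest of all depleted windows.

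A small set of 60 depleted windows (2.35%) had input below the library median in at least 1 genotype. In su(Hw)f their median preimmune level was 0.302 and their median input level 0.873, and in wild type these were 0.195 and 0.685. They were found on each arm, with 16 on X and 10 to 12 on each other arm. A centromere-side end lay within 1.5 Mb of 8 of the 60, beside 2.23% of all depleted windows and 4.91% of tested windows. A telomere-side end lay within 1.5 Mb of 7 of the 60, beside 6.93% and 6.28%. At least one 100 bp bin without input reads was found in 49 of them (81.7%), against 7.16% of all depleted windows and 23.6% of tested windows. Empty bins mark stretches with no placed reads, and how the authors handled multiply matching reads is not given. The 5 with the least input held 34 to 46 input reads in su(Hw)f and 23 to 31 in wild type. They were 2R 9005001 to 9006000, X 4630001 to 4631000, X 14181001 to 14182000, 3L 24054001 to 24055000 and 2R 1103001 to 1104000. Of the 60, the counting interval lay wholly under 0.5 in both genotypes in 6.

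Depleted windows lay close together. Another depleted window touched 699 of them (27.4%, 25.6% to 29.1%), where 2.27% of all tested windows were depleted. The windows enriched by preimmune at least 2-fold in both genotypes numbered 3486 (3.1% of tested windows), and 14.1% of them touched another of their kind (13.0% to 15.3%). At 1 kb from a depleted window, 15.7% of tested windows were depleted. The share was 8.91% at 2 kb, 6.08% at 5 kb, 4.91% at 10 kb, 4.23% at 20 kb, 3.81% at 30 kb and 3.09% at 50 kb. At 100 kb it was 3.60%, at 200 kb 2.47% and at 500 kb 3.27%. The share was highest within a few kb and above the background of 2.27% at each distance read, up to 500 kb. This background pools X, where 3.99% of tested windows were depleted, with the autosomal arms, where 1.88% were. Read against these separate backgrounds, the share on X was below its own at 50 kb (3.64%). On the autosomal arms it was below its own at 200 kb (1.70%). At the other distances both were above, so the pooled background does not show how far the clustering reaches.

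The touching share depends on the window: it was 36.6% with 500 bp windows and 18.7% with 2 kb windows, where 3.79% and 1.11% of tested windows were depleted. Windows rich in input cluster too, whether depleted or not. Of the 8459 windows at or above the 90th percentile of both inputs, 49.9% touched another such window, and 7.52% of tested windows are of this kind. The part of input level in the clustering of depleted windows was not tested.

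**Figure D2:**
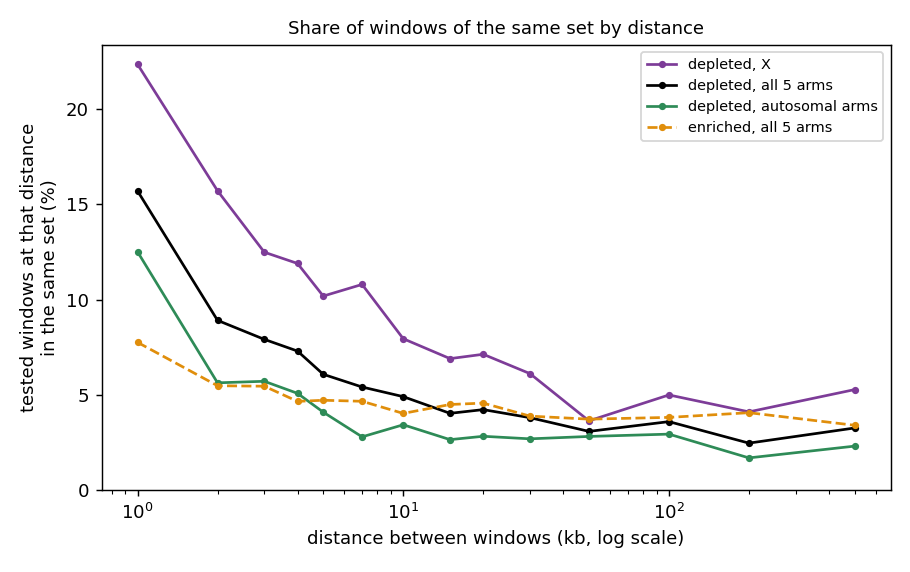
Percentage of tested windows of the same set (y axis) at each distance from a window of the set (x axis, kb, log scale), for depleted windows on X, on all 5 arms and on the autosomal arms, and for windows enriched by preimmune in both genotypes (dashed). In each line the share is highest at 1 kb, and for depleted windows on X it is 22.3% at 1 kb and 7.95% at 10 kb, against 12.5% and 3.43% on the autosomal arms.

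The 2554 windows formed 2156 runs of touching windows. Single windows made up 1855 of the runs, 232 runs were 2 kb long, 51 were 3 kb, and 18 were 4 kb or longer. X held 14 of these 18. The longest was 2L 5317001 to 5324000, 7 kb long, with 1237 preimmune reads and 3354 input reads in su(Hw)f ovaries, against 442 and 1531 in wild-type ovaries. Its ratio was 0.379 in su(Hw)f (0.355 to 0.405) and 0.334 in wild type (0.300 to 0.371). Preimmune there was 1.02 times the median in su(Hw)f and 0.631 times in wild type, against input at 2.98 and 1.88 times. Over the 5 kb on its low-coordinate side the ratio was 0.624 in su(Hw)f and 0.717 in wild type, and over the 5 kb on its other side 1.0 and 1.12. The window touching the run on the low-coordinate side was at 1.12 in su(Hw)f and 1.04 in wild type, and low ratios there lay further out. On the high-coordinate side the first 2 windows were at 0.515 and 0.852 in su(Hw)f and at 0.542 and 0.993 in wild type.

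**Figure D3:**
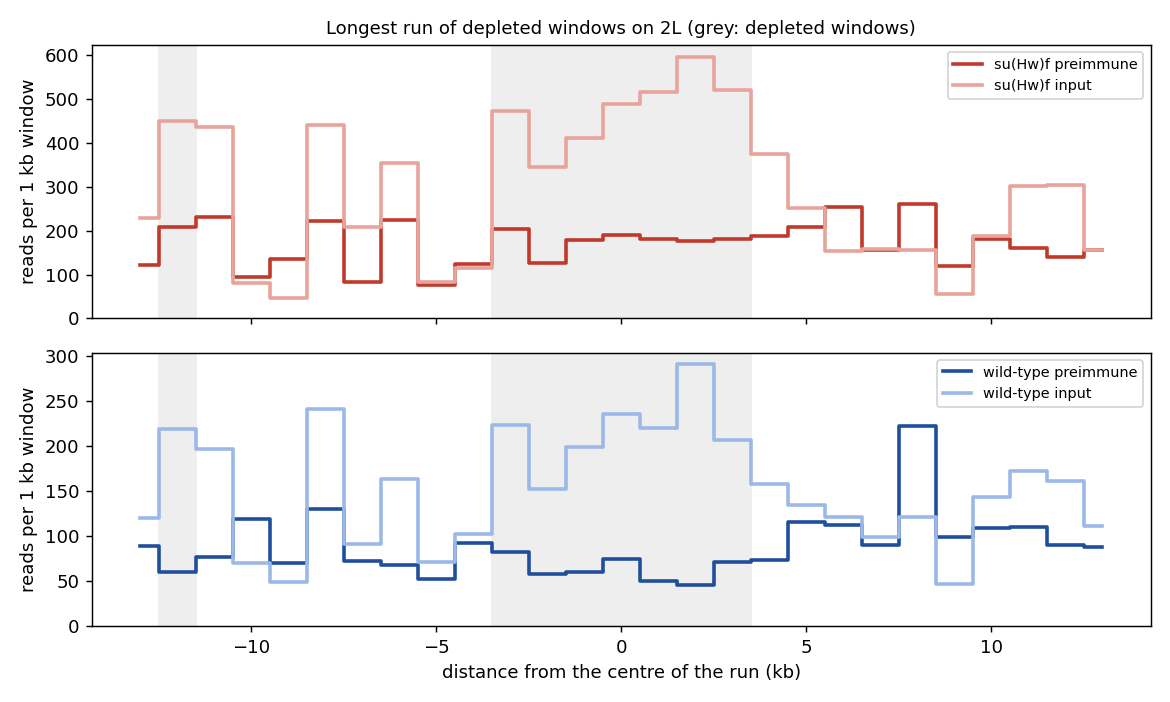
Reads per 1 kb window (y axis) in su(Hw)f (upper panel) and wild type (lower panel) around the longest run of depleted windows, by distance from its centre in kb (x axis), with depleted windows shaded grey. Input is high across the 7 kb of the run, up to 597 reads in su(Hw)f and 292 in wild type in its fullest window, while preimmune there holds 176 and 46 reads.

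Both runs of 6 kb and all 3 runs of 5 kb were on X, and of the 5 kb runs the 2 with the lowest mean ratio are given here. X 20276001 to 20282000 held 1002 preimmune reads and 2828 input reads in su(Hw)f ovaries, against 379 and 1333 in wild-type ovaries. X 6140001 to 6146000 held 1200 and 2871 in su(Hw)f ovaries, against 361 and 1291 in wild-type ovaries. X 10360001 to 10365000 held 860 and 2339 in su(Hw)f ovaries, against 222 and 1036 in wild-type ovaries. Each had su(Hw)f preimmune within 15% of the library median, su(Hw)f input near 3 times its median, and wild-type preimmune well below its median. Over X 10360001 to 10365000 the ratio was 0.378 in su(Hw)f (0.349 to 0.409) and 0.248 in wild type (0.213 to 0.287), the widest gap between the genotypes among the 5 longest runs. X 19754001 to 19759000, the last of the 5, was at 0.389 in su(Hw)f (0.360 to 0.420) and 0.299 in wild type (0.263 to 0.340).

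When windows within 10 kb of each other were joined, 1512 groups resulted, and 981 windows (38.4%) stood alone. The 70 groups with 5 or more windows held 462 windows, or 18.1%. The 5 largest groups were all on X. X 20262001 to 20297000 held 16 depleted windows in 35 kb and contains the run at X 20276001 to 20282000. X 2584001 to 2631000 held 14 in 47 kb, X 11004001 to 11022000 held 12 in 18 kb, X 19527001 to 19555000 held 12 in 28 kb, and X 19359001 to 19388000 held 11 in 29 kb. Input was raised across each of these whole stretches, from 2.07 to 2.75 times the median in su(Hw)f and from 1.56 to 1.84 times in wild type. The fixed 20 kb window with the most was X 20260001 to 20280000, with 12 depleted windows.

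Ratios in the windows around depleted windows were low too. At 1 kb, the ratio of summed reads was 0.680 on the low-coordinate side and 0.684 on the high-coordinate side in su(Hw)f, and 0.634 and 0.649 in wild type. At 5 kb it was 0.841 and 0.850 in su(Hw)f, and 0.816 and 0.837 in wild type. At 20 kb it was 0.906 and 0.917 in su(Hw)f, and 0.890 and 0.891 in wild type. The sides were alike, and the ratio at 20 kb was still below the 0.997 in su(Hw)f and 0.996 in wild type of all tested windows. Those values pool the arms, and X holds 32.6% of depleted windows but 18.5% of tested ones. The part of this in the lower ratios was not tested. With other depleted windows left out, the ratio at 1 kb on the low-coordinate side was still 0.769 in su(Hw)f and 0.715 in wild type. At 20 kb on that side it was 0.952 in su(Hw)f and 0.930 in wild type.

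Levels around the windows separated the libraries. In su(Hw)f, mean preimmune was 0.963 times the median in the depleted windows, 1.05 at 1 kb on either side, and 1.01 to 1.02 at 20 kb. Mean su(Hw)f input was 2.55 in the windows, 1.71 to 1.72 at 1 kb and 1.22 to 1.25 at 20 kb. In wild type, preimmune was 0.629 in the windows, 0.871 to 0.881 at 1 kb and 0.979 to 0.989 at 20 kb, and input was 1.78, 1.35 to 1.37 and 1.09 to 1.11. Over all tested windows the mean level was 1.0 in su(Hw)f preimmune, 1.11 in su(Hw)f input, 1.04 in wild-type preimmune and 1.04 in wild-type input. Against these means, which also pool X with the autosomal arms, at 20 kb input was still higher in both genotypes and wild-type preimmune still lower. Among the 4151 tested neighbours that were not themselves depleted, 168 (4.05%) were at 0.5 or less in su(Hw)f and 976 (23.5%) in wild type. Of all 109883 tested windows that were not depleted, 1232 were at 0.5 or less in su(Hw)f and 8826 in wild type. Both ratios were under 1 in 61.9% of these neighbours and in 32.6% of tested windows, depleted ones included.

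**Figure D4:**
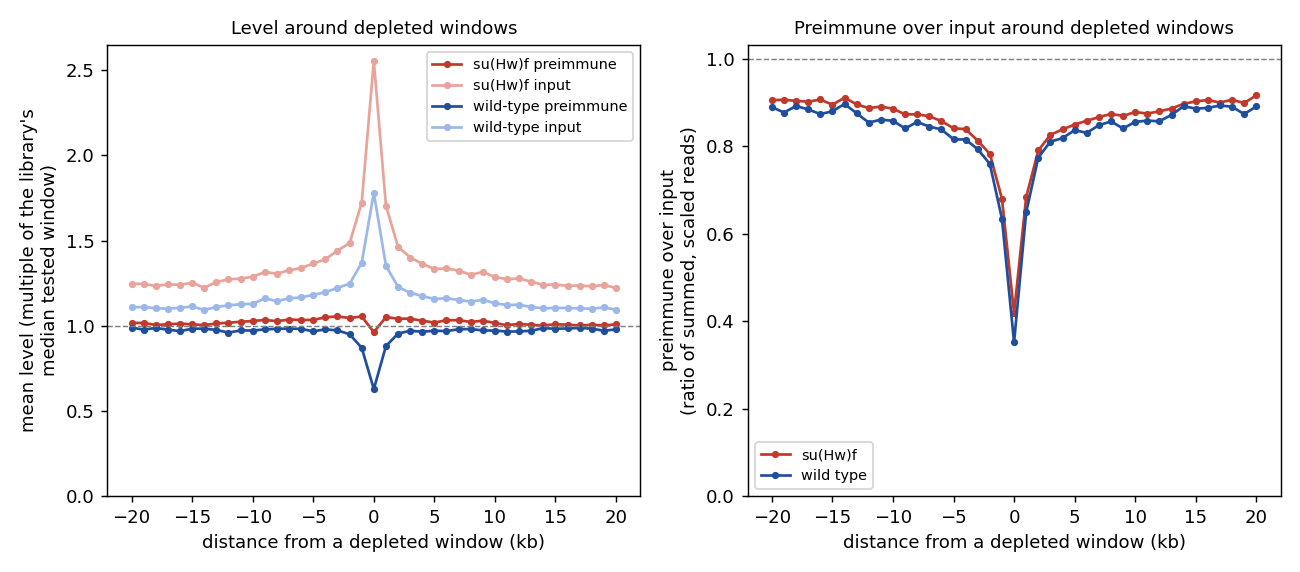
Left, mean level of the 4 libraries (y axis, multiples of the library's median tested window) by distance from a depleted window in kb (x axis). Right, preimmune over input of summed, scaled reads in su(Hw)f and wild type. At the window preimmune is at 0.963 in su(Hw)f and 0.629 in wild type and input at 2.55 in su(Hw)f and 1.78 in wild type, and the ratio stays below 1 out to 20 kb.

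Inside the windows the depletion was shallower at the edges than in the middle. Across the bins of 100 bp the summed ratio was 0.397 to 0.463 in su(Hw)f and 0.328 to 0.405 in wild type, with the highest values in the outermost bins. Mean su(Hw)f preimmune varied little, between 16.3 and 17.1 reads per bin, while su(Hw)f input ran from 37.2 to 43.4. Wild-type preimmune ran from 6.05 to 6.72 reads per bin and wild-type input from 19.2 to 21.3. Of the portions of 500 bp on either side of the middle, at least 1 was at 0.5 or less in both genotypes in 2433 windows (95.3%), and both were in 906 (35.5%). For the most part the input did not come from single bins. The fullest bin held a median of 15.1% of the su(Hw)f input reads of a depleted window and 15.4% in wild type. In tested windows these were 19.5% and 17.9%. The fullest bin held over 30% in 37 windows in su(Hw)f (1.45%, against 6.655% of tested windows) and in 32 in wild type (1.25%, against 2.85%). This share tends to fall as reads rise, and the rule favours windows with much input. The lower share was thus partly fixed by the choice of the windows.

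The place of the input peak was read across genotypes. With each window centred on its fullest su(Hw)f input bin, wild-type input stood at 2.29 times the median in that bin, 1.62 to 1.65 times at 300 bp and 1.36 to 1.37 times at 900 bp. Centred on the fullest wild-type input bin, su(Hw)f input stood at 3.33 times, 2.25 to 2.32 at 300 bp and 1.72 to 1.75 at 900 bp. Each input was high where the other had its fullest bin. Both inputs entered the rule, so a high level there was partly fixed by the choice of the windows. At the bin chosen in su(Hw)f, wild-type preimmune was 0.637 times the median, and 0.848 to 0.854 at 900 bp. At the bin chosen in wild type, su(Hw)f preimmune was 1.05 times, and likewise 1.05 at 900 bp. The same bin was the fullest in both inputs in 27.3% of depleted windows, and in 32.7% of tested windows. The fullest bins lay within 1 bin of each other in 54.2% of depleted windows and in 61.3% of tested windows.

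Along the genome, X carried more depleted windows than any autosomal arm. On X, 832 of 20847 tested windows were depleted (3.99%, 3.73% to 4.27%), against 1722 of 91590 on the autosomal arms (1.88%, 1.79% to 1.97%). X thus held 32.6% of the depleted windows and 18.5% of the tested ones. Among the autosomal arms, 2R had 2.29% (2.08% to 2.50%), 3R 1.84%, 3L 1.76% and 2L 1.69%. The intervals of 3R, 3L and 2L overlap, so these arms are not separated by counting error. Enriched windows made up 3.32% of tested windows on X and 3.05% on the autosomal arms, and their share was above that of X on 2L (3.73%) and 3L (3.42%).

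Input on X was not raised in its median but was at its upper end, and its part in this lead was not tested. Median levels over tested windows were like those of the autosomes, at 1.0 times the library median in su(Hw)f input and 0.983 in wild-type input on X, against 1.0 and 1.0. The upper end differed: 10.1% of X windows were at or above the 90th percentile of both inputs (9.69% to 10.5%), against 6.94% of autosomal windows (6.78% to 7.10%). Among these, 30.4% of X windows were depleted (28.4% to 32.4%), against 20.2% of autosomal ones (19.2% to 21.2%). Median ratios over all tested windows were 1.06 in su(Hw)f and 0.998 in wild type on X, against 1.10 and 1.01 on the autosomes. With each ratio set relative to the median of its arm, an alternative chosen after seeing the data, X held 29.5% of the depleted windows. The share of depleted windows touching another was largest on X, at 36.5% (33.3% to 39.9%). It was 27.4% on 2L, 26.2% on 2R, 22.5% on 3R and 15.8% on 3L. The depleted shares of tested windows were 3.99% on X, 1.69% on 2L, 2.29% on 2R, 1.84% on 3R and 1.76% on 3L. Touching is more frequent where more windows are depleted, so these touching shares do not rank the arms by clustering.

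Near the centromeres depleted windows were sparse. Within 1.5 Mb of the centromere-side ends, 57 of 5524 tested windows were depleted (1.03%, 0.782% to 1.34%). Within 1.5 Mb of the telomere-side ends, 177 of 7060 were (2.51%, 2.16% to 2.90%), and between the ends 2320 of 99853 (2.32%, 2.23% to 2.42%). Input followed the same order, with tested windows at 0.689 times the median in su(Hw)f and 0.784 in wild type on the centromere side, 1.20 and 1.15 on the telomere side. The enriched windows had the reverse order, at 7.58% of tested windows on the centromere side and 1.91% on the telomere side. The arms differed: the centromere side of 2R had 0.394%, 2L 0.443%, 3L 0.559%, X 1.41% and 3R 1.97%. 3R was also the arm whose centromere-side input was not low, at 1.10 times the median in su(Hw)f and 1.08 in wild type. The telomere side of 2R had 3.61%, X 3.30%, 2L 2.15%, 3L 2.10% and 3R 1.39%. On 3R the order of the ends was thus reversed, with telomere-side input at 1.09 times in su(Hw)f and 1.08 in wild type.

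**Figure D5:**
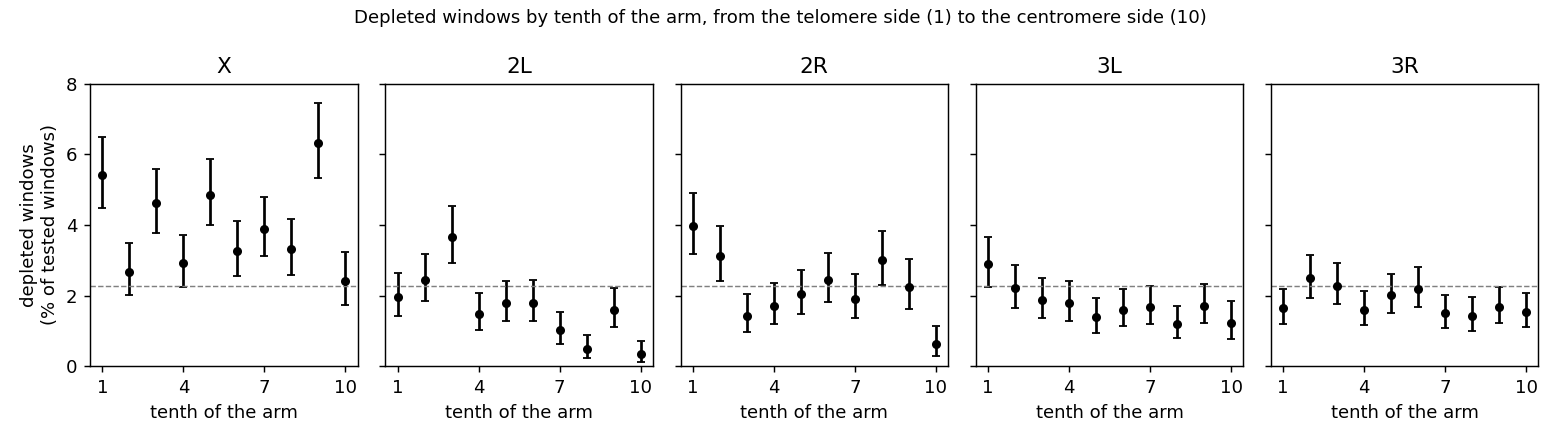
Depleted windows as a percentage of tested windows (y axis) in 10 equal parts of each arm (x axis), from the telomere side (1) to the centromere side (10). Points are shares, bars are exact 95% intervals for counting error and the dashed line is the 2.27% of all tested windows: X lies above the line in each of its parts, up to 6.32% in part 9, and 2L and 2R drop to 0.335% and 0.624% at the centromere side.

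Split into 10 equal parts, X ran between 2.41% and 6.32%, so its lead was not from 1 part. 2L ran from 0.335% in the part at the centromere side to 3.67% in the third from the telomere side. On 2R the lowest part was again at the centromere side (0.624%) and the highest at the telomere side (3.97%). 3L ran from 1.18% to 2.90% and 3R from 1.43% to 2.50%, with no drop at the centromere side of 3R. In single megabases, 8 of the 10 with the largest share of depleted windows were on X. X 19000001 to 20000000 led with 87 of 924 tested windows (9.42%), followed by X 1000001 to 2000000 with 82 of 953 (8.60%). Both had raised input over the whole megabase, with medians of 1.24 and 1.59 times in su(Hw)f and 1.13 and 1.33 times in wild type. In the rest of these 10 megabases the medians ran from 1.02 to 1.29 times in su(Hw)f and from 1.01 to 1.21 times in wild type. X 10000001 to 11000000, with 5.36% depleted, was the lowest in both. None of the 118 megabases with at least 500 tested windows was free of depleted windows, and 2L 21000001 to 22000000 had the fewest, 1 of 799.

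On a finer scale, 322 of 1175 stretches of 100 kb (27.4%) held no depleted window, the median stretch held 1, and the fullest held 22. The longest stretch without any was 2L 20738001 to 21716000, 978 kb long, where 771 windows were tested. Its input was 0.832 times the median in su(Hw)f and 0.922 times in wild type. On 3L the longest lay in the arm's interior, at 4940001 to 5561000, with input at 0.789 times in su(Hw)f and 0.879 times in wild type. Spacing differed by arm, with a median of 7 kb from the start of a depleted window to that of the next on X, 20 kb on 2R, 21 kb on 2L, 27 kb on 3R and 31 kb on 3L.

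Chromosome 4, left out of the rule, held 0 depleted windows among 1156 tested, which allows a share of up to 0.260%. There, 3 windows were at 0.5 or less in su(Hw)f and 11 in wild type.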

How the data were processed

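Reads were measured by chromatin immunoprecipitation sequencing in 1 preimmune and 1 input library for each of 2 genotypes. The 2 anti-Su(Hw) libraries are not analysed here. The deposited values are read counts per 100 bp window in wiggle format, per the file headers, and are whole numbers without scaling. Build dm3 and Partek 6.5 are named in the submitters' processing notes. Libraries had 15 PCR cycles and fragments of about 250 bp, per the labels' protocols. Which aligner was used, and how duplicates and multiply matching reads were handled, is not given in the sources used here. Duplicates that were kept would widen the scatter beyond counting error.

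Bins were summed to 1 kb on 5 arms, and each library was divided by its total on these arms plus chromosome 4. Ratio intervals are exact conditional and share intervals exact Clopper-Pearson at 95%. Intervals of medians are from order statistics. A limit for a count of 0 is 3 counts. All treat windows as independent, although neighbouring windows share fragments. Calling was tried on simulated counts in which preimmune was lowered to 0.25 times in chosen windows. Only 9 depleted windows were at 0.25 or less in both genotypes, so this does not check calls near the threshold. Python 3.11.15, numpy 2.4.6, scipy 1.17.1 and matplotlib 3.10.9 were used.

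The windows, lists and comparisons were chosen with earlier results of these data known. Windows named are the 5 longest runs, the 5 with the most and the 5 with the least input, the 5 lowest ratios with at least 50 reads per pair, the 3 nearest the threshold on each side, and the fullest 20 kb. The largest groups, the densest megabases, the longest free stretches and the windows with the highest input in su(Hw)f relative to wild type were chosen after their values were seen. No dm3 sequence or gene annotation was used here, so no sequence, base composition or gene is given for a window. Alternatives covered scaling, count minimum, threshold, window size and grid, empty bins and arm ends.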

Additional observations from a re-analysis of the deposited data

Results flagged for a closer look

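Preimmune over input went in opposite directions in the genotypes in a few tested windows. In 14 windows it was at 2 or more in su(Hw)f and 0.5 or less in wild type, and in 5 windows at 0.5 or less in su(Hw)f and 2 or more in wild type. The difference was not tested, since each group is 1 library.

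Outside the arms searched, the same rule found 61 depleted windows among 4872 tested on the heterochromatic and unplaced scaffolds (1.25%). Of these, 20 were on U, 13 on 3RHet and 10 on 2RHet. These scaffolds entered no comparison. Reads on the Y scaffold YHet, also unused, numbered 31 in su(Hw)f preimmune, 33 in su(Hw)f input, 26 in wild-type preimmune and 27 in wild-type input, in libraries labelled as from females. How many reads would be placed on YHet by misalignment was not measured.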

How the results depend on the processing

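No paired analysis was possible because each group is a single library. Of 65 values under 11 alternatives, 44 stayed within 1.5 times the main count or inside the interval of the main value. Depleted windows numbered 569 at a threshold of 0.4, 8417 with 500 bp windows and 630 with 2 kb windows. These were 0.506%, 3.79% and 1.11% of the windows tested under each setting, against 2.27% in the main one. The share touching another was 15.1% at 0.4, 36.6% at 500 bp, 18.7% at 2 kb and 33.1% with ratios divided by their median. The median su(Hw)f input level was 2.86, 2.67, 2.50 and 2.50 under these settings in the same order, and 2.35 without windows with an empty input bin. The wild-type level was 1.90, 1.83, 1.77, 1.78 and 1.68. The share on X was 37.4% at 0.4, 27.7% at 500 bp, 40.8% at 2 kb and 29.5% relative to the median of each arm, chosen after seeing the data. The cause of these shifts was not tested. The share on X was above that of tested windows in all 12 values, the main one included. The share at the centromere side was below it in all 11.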
